A study of Mus musculus with 2 samples.

Results

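The genes described here are 36 mitosis genes, chosen by name from what their proteins do: the cyclins and kinases that start mitosis, the parts of the spindle and kinetochore, the spindle checkpoint, an activator and a ubiquitin-conjugating enzyme of the anaphase-promoting complex and the machinery of cytokinesis. The 36 genes were chosen with earlier results of these data known. They were followed through the array probes that carry their symbols, 54 probes in all, out of 30165 genes named on the array. All 36 had a probe, and 32 had one well above background on both arrays.

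The study compared bone marrow mononuclear cells (BM MNCs) of C57/Bl6J mice with and without ninjin'yoeito (NYT), a herbal drug. There were 2 cultures, 1 untreated negative control and 1 given NYT, each read on 1 one-colour (Cy3) Agilent array. Both were collected at day 11, from femurs of mice 2 to 4 months old, flushed in IMDM with 2% fetal bovine serum. The dose, the number of animals pooled, and any sharing of animals between the cultures are not stated in the labels. With 1 array per group there was no replicate check, so no test was made and no p-value is given.

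Cells in G0 or G1 hold little mRNA of most of these genes. In dividing cells the transcripts rise in S phase and peak in G2 and M, under the DREAM and MuvB complexes, FOXM1 and B-MYB, and many of their proteins are then removed at the end of mitosis. In marrow they are best known as the signature of proliferating progenitors and precursors, and stem cells at rest have low levels of them. A whole culture was measured, so fewer dividing cells and less of each RNA per dividing cell cannot be told apart here.

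Every one of the 32 measured mitosis genes was lower on the NYT array than on the control array after the arrays had been scaled to a common 75th percentile. The median difference, NYT minus control, was -0.99 on the log2 scale, or 1.99-fold lower, and the range ran from -2.03 for Kif4, a chromokinesin, to -0.22 for Racgap1, a subunit of the centralspindlin complex. At least 2-fold lower were 16 of the 32 genes and at least 2-fold higher were 0, where 11.0% of all 16996 measured genes were at least 2-fold lower and 11.2% at least 2-fold higher. Over all measured genes the median difference was 0.29, so the mitosis genes lay 1.28 below it (a difference of -1.28), and all 32 lay under it.

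The differences were moderate and close to each other. The SD over the 32 genes was 0.40, against 1.11 over all measured genes. Of the 32, 30 lay below -0.28, the 25th percentile of all measured genes, and 10 below -1.11, the 10th percentile. The scanner software's own error of a difference ran from 0.20 to 0.25 for these genes, and it covers an array and not the spread between cultures. By that error, 15 of the 32 lay within 1 error of the 2-fold line, so the count of 16 depends on small steps. In the order of differences, 30 of 31 neighbouring pairs were closer than their joint error, and the exception was Kif4 against Ccnb2. By contrast, 28 of the 32 lay more than 2 errors below 0. Among the 32 genes, the difference did not follow how bright the probe was (Pearson r = 0.03, Spearman rho = -0.11, as a description across genes that share both arrays).

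**Figure D1:**
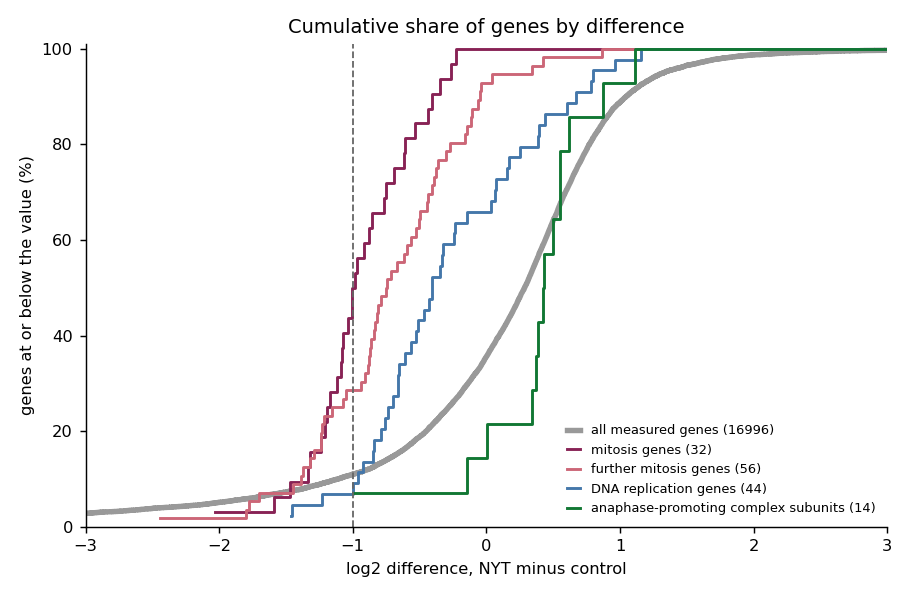
Cumulative share of genes (y axis, percent) at or below a given log2 difference, NYT minus control (x axis), for the 32 measured mitosis genes, 3 related lists and all 16996 measured genes. The curve of the mitosis genes is steep and ends at -0.22, the dashed line marks 2-fold lower, and the curve of all genes reaches 11.0% there.

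Before scaling the gap between the arrays was wider. The 75th percentile of the control array was 1475 intensity units and that of the NYT array 728, a ratio of 2.03, which scaling removes. The unscaled control intensities of the 32 genes ran from 214 to 10478 with a median of 1815, and the NYT intensities from 41.9 to 3068 with a median of 386. On these unscaled intensities every one of the 32 was at least 2-fold lower, by 2.37-fold to 8.26-fold with a median of 4.03-fold, where 36.4% of all measured genes were at least 2-fold lower. Of 10 spike-in RNAs, which were added in known amounts, 8 were well above background on both arrays, and 7 of those differed by -0.12 to 0.24 before scaling. The median of the 8 was 0.16. Without scaling the median difference of the mitosis genes was -2.01 and that of all measured genes -0.73. Scaling shifts every difference by the same constant, so the distance of -1.28 between the medians cannot change. Genes below 0 after scaling must also be below 0 without it, so the unscaled direction is no separate check. The size is relative to the other RNAs on the array.

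The 3 cyclins of S phase and mitosis had more negative differences than their kinase, and 2 of them were past 2-fold lower. Ccnb2 (cyclin B2) had an intensity of 5974 in the control and of 982 with NYT, a scaled difference of -1.59 ± 0.20 (software error, 1 array per group). Of the 32 genes, Ccnb2 and Kif4 were the 2 past 3-fold lower after scaling. Ccna2 (cyclin A2), which acts from S phase to early mitosis, read 2725 and 634, a difference of -1.09. Ccnb1 (cyclin B1), the main partner of Cdk1, read 2183 and 586, a difference of -0.88. Cdk1, the kinase that drives entry into mitosis, read 1099 and 376, a difference of -0.53. Cdc25c, the phosphatase that activates Cdk1, was well above background on the control array alone, at 96.6 against 16.9, and was at least 2.48-fold lower. In this bound the NYT value is the lowest intensity well above background on that array, 19.2.

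The Ccnb2 probe lies at chr9:70255671-70255730 on the minus strand of the mm9 build, as the array's own coordinates give it. Those of Ccnb1 and Cdk1 lie at chr13:101548722-101548781 and chr10:68801072-68801131, also on the minus strand. The files name the gene at each probe, and the exon or UTR was not analysed here.

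Of the mitotic kinases, Plk1, which acts in centrosome maturation, kinetochore attachment and cytokinesis, was past 2-fold lower. It read 4762 (control) and 1021 (NYT), a difference of -1.20. Nek2, a kinase that separates centrosomes, and Aurka, the aurora kinase of centrosomes and spindle poles, stayed just inside the line at -0.92 and -0.86. In the chromosomal passenger complex, which corrects wrong attachments at centromeres, Birc5 (survivin) was at -0.75 and Cdca8 (borealin) at -0.61. For its kinase Aurkb no level is given, since its intensities of 19.7 and 4.02 were on neither array well above background.

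The spindle checkpoint, which holds the cell in metaphase until every kinetochore is attached, had a median of -0.61 over 3 measured genes. Bub1b (BubR1) was at -1.01 (-0.63 under normexp, another background correction), Bub1 at -0.61 and Mad2l1 (Mad2) at -0.26. Bub1 was the gene with the closest look at spot noise, because its probe was printed 10 times on each array. Its spots on the control array read 401 to 440, with a median of 414, over 9 spots left after outlier flags. On the NYT array its 10 spots read 126 to 143, with a median of 135. These intensities are unscaled, and the arrays differed 2.03-fold at the 75th percentile, so the gap between the spot ranges is not read as a difference. The SD over spots was 0.05 and 0.06 on the log2 scale. Spots of an array are not replicate cultures. Ttk (Mps1), the kinase that starts checkpoint signalling, was well above background on the control array alone, at 62.5 against 18.8, and was at least 1.61-fold lower.

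Both genes of anaphase onset among the 36 were past 2-fold lower. Cdc20, an activator of the anaphase-promoting complex that the checkpoint holds back, read 3920 and 774, a difference of -1.32. Ube2c, the ubiquitin-conjugating enzyme that starts chains for the same complex, was at -1.12.

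At centromere and kinetochore, Cenpa, the histone H3 variant that marks the centromere, read 2388 and 425, a difference of -1.47. Cenpe, a kinesin that moves chromosomes to the spindle equator, was at -1.04. Nuf2 and Ndc80 are partners in the complex that binds microtubule ends, and they were at -0.98 and -0.44. Nuf2 read 474 and 119 and Ndc80 325 and 118, so both were under the 75th percentile of their arrays. Cenpf, a large protein of the outer kinetochore, was likewise on neither array well above background (17.0 and 3.99).

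Among the 6 spindle motors and assembly factors, 4 were past 2-fold. Kif4, which shortens and organises microtubules on chromosome arms and at the midzone, read 346 and 41.9, a difference of -2.03 ± 0.25. With normexp its difference was -0.97, just short of 2-fold. Kif2c (MCAK), a kinesin that takes microtubules apart, was at -1.19, but at -0.35 under normexp and just under 2-fold with quantile normalization. The hyaluronan-binding spindle protein gene Hmmr was at -1.08 and Nusap1, which bundles spindle microtubules, at -1.07. Kif11 (Eg5), the motor that pushes spindle poles apart, was at -0.97 and Tpx2, the activator of aurora A on the spindle, at -0.76.

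The genes of cytokinesis were nearer to 0. The median over 6 genes of the midzone and cytokinesis was -0.55, and 2 of them were past 2-fold. These were Anln (anillin), the scaffold of the contractile ring, at -1.17, and Kif20a, a kinesin of the midzone, at -1.01. Prc1, which bundles antiparallel midzone microtubules, was at -0.69. The 3 genes whose products together switch on RhoA at the cell equator had the smallest differences of the 6. Ect2, the RhoA exchange factor, was at -0.41, and the centralspindlin partners Kif23 and Racgap1 were at -0.35 and -0.22. Racgap1 read 2133 and 902. Its distance of 0.22 from 0 was close to its software error of 0.20.

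Both genes of chromosome structure were past 2-fold. Top2a, the topoisomerase that untangles sister chromatids, read 1818 and 355, a difference of -1.34. Mki67 (Ki-67), a coat protein of mitotic chromosomes and the usual histological marker of cycling cells, read 9849 and 2064, a difference of -1.24. The Mki67 probe lies at chr7:142881591-142881650 and the Top2a probe at chr11:98855522-98855581 of mm9, both on the minus strand.

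**Figure D2:**
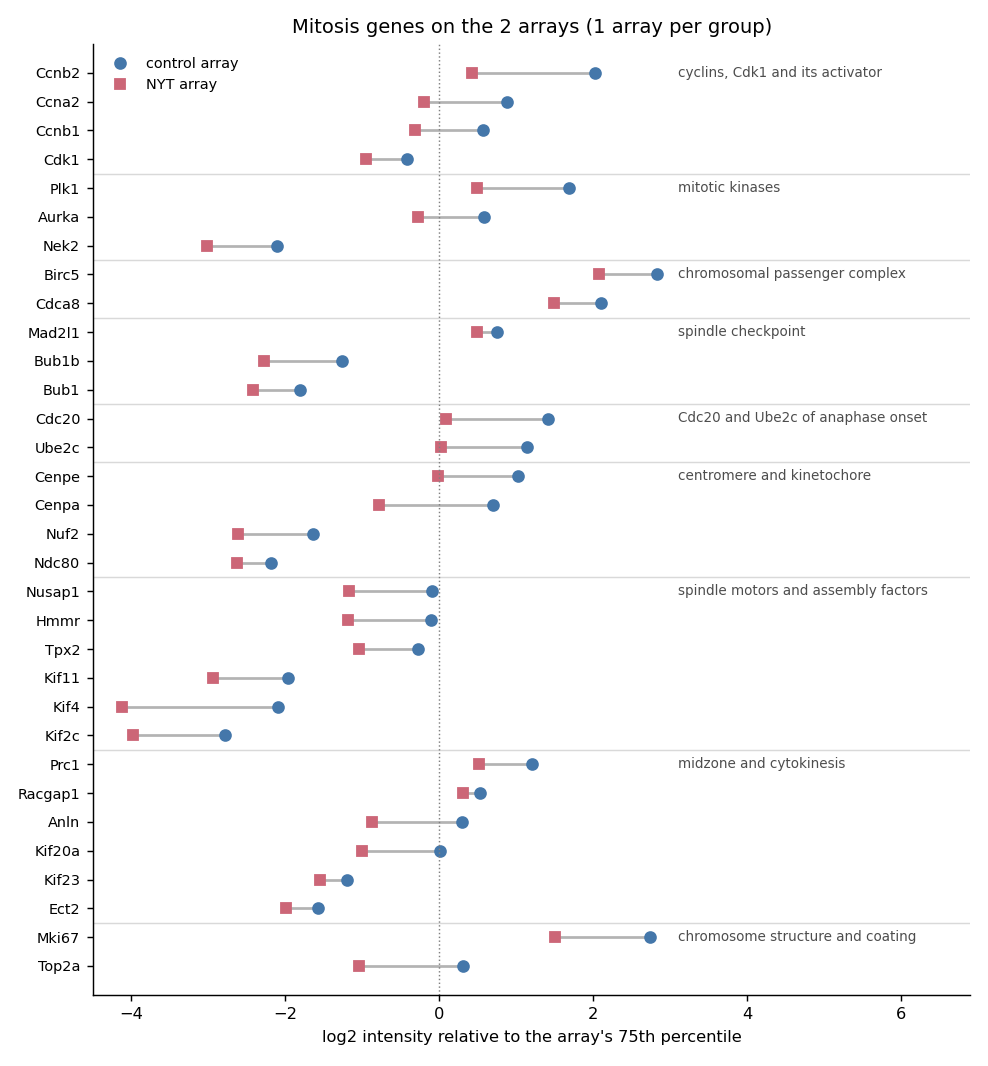
Scaled log2 intensity (x axis, relative to each array's 75th percentile) of the 32 measured mitosis genes for control (circles) and NYT (squares), grouped by role. The square lies to the left of the circle for every gene, and levels are not comparable between genes because each probe has its own brightness.

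**Figure D3:**
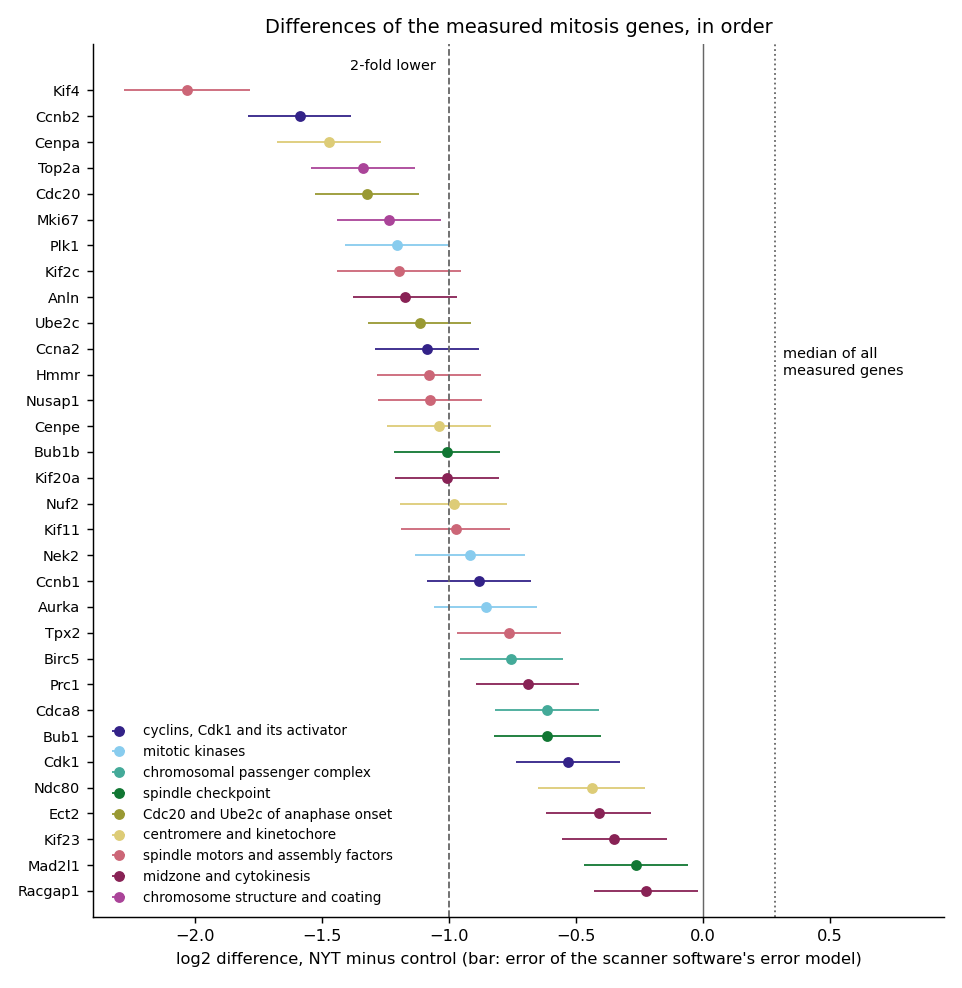
Log2 difference, NYT minus control (x axis), of the 32 measured mitosis genes in order, with the scanner software's error as bars and role as colour. The points run from -2.03 (Kif4) to -0.22 (Racgap1), with the dashed line at 2-fold lower and the dotted line at 0.29, the median of all measured genes.

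Where a gene had several probes, they did not always give one value. The gene value above is that of the brightest of its measured probes. Of the 45 probes measured on both arrays, 43 were below 0, and 20 were at least 2-fold lower. In 10 genes several probes were measured, and the spread between them had a median of 0.45 and reached 1.03. For Cdk1 and Tpx2 the sign differed between probes. The main Cdk1 probe gave -0.53 at intensities of 1099 and 376, and a dim one gave 0.35 at 38.2 and 24.0. For Tpx2 the main probe gave -0.76, and a dim one, designed to another transcript record, gave 0.27 at 80.2 and 47.7. Averaged over probes, the values of Cdk1 and Tpx2 became -0.09 and -0.25.

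Mad2l1 and Kif2c had probes on both sides of the 2-fold line. For Mad2l1 the main probe gave -0.26 at 2491 and 1025, while the others gave -1.09 and -1.09, at 187 and 43.6 and at 244 and 56.5. The mean over the Mad2l1 probes was -0.81. Kif2c gave -1.19 and -0.62 on its 2 probes. Ccnb1 gave -0.88, -0.95 and -0.24. Closer together were the probes of Mki67, at -1.24 and -1.08, those of Birc5, from -0.98 to -0.75, and those of Racgap1, at -0.22 and -0.24.

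The promoters of these genes share letters that the choice of genes did not use. In G2 and M phase genes, MuvB complexes bind a cell cycle homology region (CHR), often written TTTGAA or TTCGAA, and NF-Y binds CCAAT boxes. RefSeq promoter windows of GRCm38.p6, from 250 bases before to 50 after each gene's start, were found for 31 of the 36 genes, and a gene was counted where any of its windows held the letters. TTTGAA or TTCGAA, on either strand, was in 24 of the 31 (77.4%), against 21.7% of 27025 genes with a window. CCAAT, on either strand, was in 24 of 31 (77.4%), against 41.1% of all. Both were in 21 of 31 (67.7%), against 8.61% of all. Neither was in the windows of Mad2l1, Nusap1, Birc5 and Nuf2.

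Ccnb2, Top2a and Cdc20 are shown because they were past 2-fold lower and carry both sets of letters in the 250 bases before the start. The bases run 5′ to 3′ on the gene's strand and end just before the RefSeq start, and capitals mark the CHR letters and CCAAT, each as it stands or as its reverse complement. The positions on GRCm38.p6 are chr9:70421555-70421804 for Ccnb2, chr11:99024190-99024439 for Top2a and chr4:118437344-118437593 for Cdc20, all on the minus strand.
Ccnb2: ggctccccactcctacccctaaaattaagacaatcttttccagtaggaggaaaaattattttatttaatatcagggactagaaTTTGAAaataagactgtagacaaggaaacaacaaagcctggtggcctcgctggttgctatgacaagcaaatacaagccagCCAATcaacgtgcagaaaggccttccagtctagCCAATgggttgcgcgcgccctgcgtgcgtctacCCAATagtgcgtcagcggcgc
Top2a: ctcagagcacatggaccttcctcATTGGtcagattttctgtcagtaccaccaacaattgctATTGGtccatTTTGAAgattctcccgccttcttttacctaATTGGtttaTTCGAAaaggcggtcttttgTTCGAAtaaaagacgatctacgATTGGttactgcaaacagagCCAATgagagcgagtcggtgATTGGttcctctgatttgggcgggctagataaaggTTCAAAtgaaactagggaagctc
Cdc20: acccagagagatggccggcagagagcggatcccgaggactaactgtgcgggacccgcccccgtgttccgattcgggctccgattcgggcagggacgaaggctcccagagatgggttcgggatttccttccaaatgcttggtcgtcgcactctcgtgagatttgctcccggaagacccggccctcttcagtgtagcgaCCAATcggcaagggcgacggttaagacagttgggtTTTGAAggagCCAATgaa
In the bases shown, Top2a has 6 CCAAT matches and 4 CHR matches and Cdc20 has 2 and 1. Ccnb2 has 3 and 2 in its whole window, with 1 match past the bases shown.

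CHR letters near the start were found in genes at both ends of the order. The next stretches hold the CHR match nearest to the start, with 10 bases on each side, for the 5 genes with the most negative differences and for the 4 nearest to 0 that have such a match. Capitals mark TTTGAA, read on whichever strand holds it.
Kif4, chrX:100626074-100626099, plus strand: ctgggatcaaTTTGAAacttggcggt
Ccnb2, chr9:70421535-70421560, minus strand: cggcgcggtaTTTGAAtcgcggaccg
Cenpa, chr5:30666892-30666917, plus strand: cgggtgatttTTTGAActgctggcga
Top2a, chr11:99024197-99024222, plus strand: cctagtttcaTTTGAAcctttatcta
Cdc20, chr4:118437346-118437371, minus strand: acagttgggtTTTGAAggagccaatg
Ndc80, chr17:71526813-71526838, plus strand: cccaaggcggTTTGAAttttaaagtt
Ect2, chr3:27153824-27153849, minus strand: actggattttTTTGAAtcggaggcgg
Kif23, chr9:61946782-61946807, minus strand: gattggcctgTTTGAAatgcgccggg
Racgap1, chr15:99651636-99651661, minus strand: ggtgcgtgatTTTGAAccggatctgg
The 9 genes were picked for having a CHR match and the nearest was taken, so each stretch holds one by selection. In Top2a and Ndc80 the letters lie on the strand opposite to the gene. All 9 stretches hold TTTGAA, and along the gene's strand its match begins from 23 bases before to 30 bases after the start. Racgap1, at -0.22, has it 6 bases after the start and Ccnb2, at -1.59, has it 5 bases after. A match is a run of letters and not a measured site, and binding was not measured.

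Among the measured genes past 2-fold, 10 of 14 with a window held both sets of letters, and among those under 2-fold, 9 of 15 did. Where CCAAT occurred more than once, in 17 of the 31 genes, neighbouring matches began 30 to 36 bases apart in 8 (47.1%), against 15.3% of all genes with more than 1 match. That spacing was chosen after the matches had been seen.

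**Figure D4:**
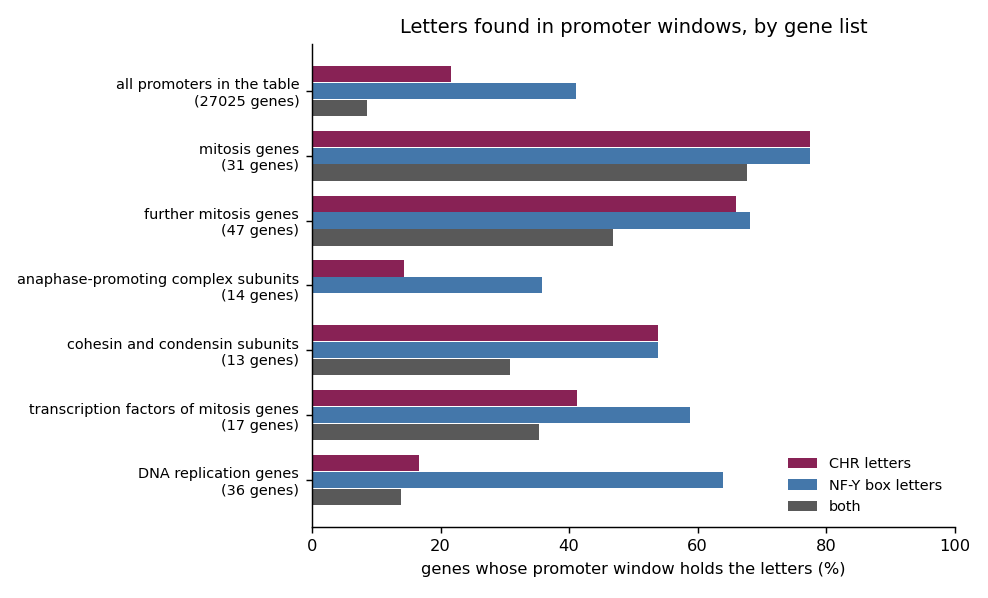
Share of genes (x axis, percent) whose RefSeq promoter window holds CHR letters, CCAAT or both, for the mitosis genes, the related lists and all genes with a window. The mitosis genes reach 67.7% for both together, the further mitosis genes 46.8% and all genes 8.61%. The transcription factors reach 35.3%, cohesin and condensin 30.8%, the replication genes 13.9% and the subunits of the anaphase-promoting complex 0.

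Other mitosis genes, 57 that are not among the 36, were mostly lower on the NYT array too. Of 56 measured, 16 (28.6%) were at least 2-fold lower, against 11.0% of all measured genes. At least 2-fold higher were 0, against 11.2% of all, and the median was -0.75 (0.29 for all measured genes). The most negative were Ckap2l, a spindle protein, at -2.44, Kif18b, a kinesin of spindle microtubule ends, at -1.80, and Cks2, a small protein that binds cyclin-dependent kinases, at -1.77. At the other end Ube2s, which lengthens ubiquitin chains for the anaphase-promoting complex, was at 0.87. Of this list, 47 genes had a promoter window, and 22 of these (46.8%) held CHR letters together with CCAAT. The promoter letters were thus not particular to the 36.

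The subunits of the anaphase-promoting complex lay near the median of all genes. Of 15 genes, which include the activator Fzr1, 14 were measured, with a median of 0.43 (0.29 for all measured genes). At least 2-fold lower were 0, where the share of all measured genes was 11.0%, and at least 2-fold higher was 1, where it was 11.2%. That one was Cdc27, a subunit of the complex, at 1.11. Lowest in the list was Fzr1 (Cdh1), the activator of late mitosis and G1, 1.99-fold lower and just short of 2-fold, followed by the subunit genes Anapc1 at -0.14 and Anapc5 at 0.00. The sign of the list's median follows the scale: without scaling it was -0.59, where that of all measured genes was -0.73. Relative to all measured genes it was slightly higher, which scaling cannot change, and slightly lower with no filter on dim probes (0.43 against 0.50). Cdc20 and Ube2c, by comparison, were at -1.32 and -1.12. In the promoter windows of 14 genes of this list, 0 held CHR letters together with CCAAT.

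Cohesin and condensin, which hold and fold the chromosomes, had a median of -0.51 over 16 measured genes (0.29 for all measured genes). At least 2-fold lower were 3 (18.8%), a share near the 11.0% of all measured genes, and 0 were at least 2-fold higher, against 11.2% of all. The 3 were condensin subunits, Ncapd2 at -1.17, Ncapg2 at -1.17 and Ncaph at -1.02. The other measured condensin subunits, named after their values were seen, were Ncapd3 at -0.95, Smc2 at -0.90, Smc4 at -0.74 and Ncaph2 at 0.51. Pds5a, a regulator of cohesin, was at 0.75.

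Of the transcription factors that act on mitosis genes, 22 measured, 5 (22.7%, against 11.0% of all measured genes) were at least 2-fold lower. At least 2-fold higher were 0, against 11.2% of all. Their median was -0.29 (0.29 for all measured genes). E2f8, a repressor that is itself an E2F target, was at -1.57, E2f2 at -1.42 and Foxm1, an activator of G2 and M phase genes, at -1.39. E2f5 was at the other end, at 0.77. Chosen after their values were seen, Mybl2 (B-MYB) was at -1.07, and the NF-Y subunit genes Nfya, Nfyb and Nfyc were at 0.30, -0.33 and -0.05. Of the MuvB subunit genes, also chosen so, Lin52 was at -1.35. The others, Lin54, Rbbp4, Lin37 and Lin9, were at 0.02, 0.12, 0.28 and 0.44.

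DNA replication genes, which act in the preceding S phase, included fewer past 2-fold. Of 44 measured, 3 (6.82%) were at least 2-fold lower, below the 11.0% of all measured genes, and 1 at least 2-fold higher, where the share of all was 11.2%. Their median was -0.40, against 0.29 for all measured genes (a distance of -0.69), and 29 of the 44 were below 0. The list was thus shifted down as a whole, with few genes past 2-fold. Pole and Pola1, catalytic subunits of replicative polymerases, were at -1.47 and -1.23, and Mcm5, of the replicative helicase, was at -1.46. Cdt1, which loads that helicase, was at 1.15. Promoter letters also differed, in that 5 of 36 replication genes with a window (13.9%) held CHR letters together with CCAAT. None of these differences between lists was tested.

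Markers of several marrow cell types differed between the same arrays. All 6 genes of the leukocyte list were well above background on both, and 1 was at least 2-fold lower, with a median difference of 0.00. At least 2-fold lower were 8 of 9 measured neutrophil markers, 5 of 5 of mast cells and basophils, 6 of 6 of megakaryocytes, 5 of 7 of T and NK cells, 3 of 6 of erythroid cells, 4 of 5 of stromal cells, 3 of 8 of monocytes and macrophages and 2 of 7 of B cells, where the share of all measured genes was 11.0%. At least 2-fold higher was 1 marker each of the erythroid, stromal and monocyte and macrophage lists, where the share of all measured genes was 11.2%. These were Slc4a1 at 1.30, Lepr at 1.35 and Cd68 at 1.18. The Slc4a1 probe was dim, at intensities of 30.3 (control) and 36.7 (NYT), with a software error of 0.37. The most negative of the same lists, named after their values were seen, were Gata1 at -3.86, Col1a1 at -5.33 and C1qa at -5.21. Median differences were -5.59 over mast cells and basophils, -4.33 over megakaryocytes, -3.20 over neutrophils and -2.70 over stromal cells. Those of erythroid cells and of T and NK cells were -1.58 and -1.30. For monocytes and macrophages the median was -0.74 and for B cells -0.28, against 0.29 for all measured genes. The part of these differences in those of the mitosis genes was not tested.

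**Figure D5:**
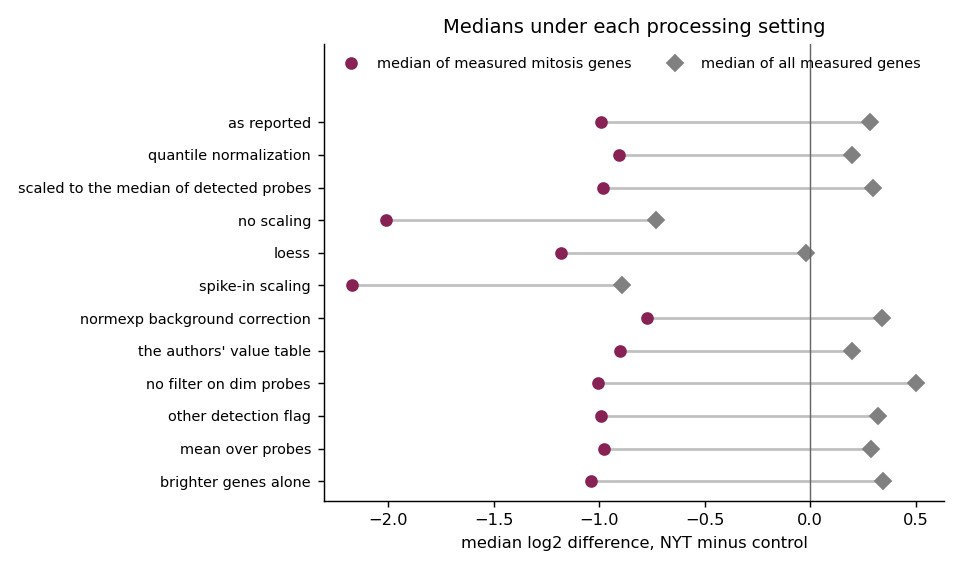
Median log2 difference (x axis) of the mitosis genes and of all measured genes under each processing setting (y axis). The median of the mitosis genes lies left of that of all genes in each row, from -2.17 with spike-in scaling to -0.77 with normexp.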

How the data were processed

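Expression was measured on 2 one-colour Agilent arrays of bone marrow mononuclear cells, 1 per group, grouped by the treatment in the labels. The authors deposited scanner output with an intensity per spot, and the file headers give Agilent Feature Extraction version 10.7.1.1, while the submitters' processing notes name 9.5.1.1. The labels and the design text name different RNA extraction kits. The authors' value table, also an intensity on a linear scale, was used as an alternative. Deposited flags for outlier spots, saturated spots and spots well above background were used as given.

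Without control spots an array had 43020 spots of 39429 probes. Of these probes 62.2% (control) and 57.7% (NYT) were well above background (over 50% of a probe's spots). Outlier spots were left out (258 and 165), and 0 spots were saturated. Spots were averaged per probe as log2 intensity, less the 75th percentile of the array. A gene took its brightest probe among those well above background in both control and NYT. Counts are at a 2-fold difference. A gene seen on 1 array has a bound against the other array's lowest intensity well above background. Errors are those of the deposited spot error column. The spot noise of 228 probes printed 10 times gave a median SD of 0.05 for a difference (log2). Precision is limited by the number of arrays.

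Probes were named through RefSeq accessions (26761), current symbols (3814) or synonyms (639), and 8215 kept the files' name. Coordinates of probes are those of the files (mm9) and those of promoters RefSeq's (GRCm38.p6), and they were not mixed. The 36 genes, their roles and the lists beside them were chosen with earlier results of these data known. All 36 are named, and of each related list the 3 most negative and the most positive gene. Other gene names are marked as chosen after their values were seen. The alternatives were 12, covering scaling, background correction, the source of values, filters, the probe rule and the threshold. Python 3.11.15, pandas 2.3.3, R 4.3.3 and limma 3.58.1 (normexp, offset 50, and loess) were used, and the counting was tested on simulated data.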

Additional observations from a re-analysis of the deposited data

Results flagged for a closer look

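Among the spike-in RNAs, which serve here only as an alternative scale, 1 stood far from the others. E1A_r60_a107 differed by 2.25 on the log2 scale before scaling (NYT minus control), a 4.75-fold higher intensity on the NYT array, and the other 7 spike-ins well above background on both arrays differed by -0.12 to 0.24.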

How the results depend on the processing

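Under 11 alternatives that give single genes a value, all 335 values of the mitosis genes were below 0, from -3.21 (Kif4, spike-in scaling) to -0.07 (Ndc80, normexp). No scaling and spike-in scaling shift every difference down by a constant, so the signs under them were fixed in advance. At least 2-fold lower under each alternative that gave them a value were 10 genes: Ccnb2, Cenpa, Top2a, Cdc20, Mki67, Plk1, Anln, Ube2c, Ccna2 and Cenpe. The other 6 of the 16 (Kif4, Kif2c, Hmmr, Nusap1, Bub1b and Kif20a) were under 2-fold with normexp, and Kif2c, Bub1b and Kif20a also with quantile normalization and in the authors' value table. The median of -0.99 and the count of 16 changed most with the scale. Without scaling they were -2.01 and 32, where 36.4% of all genes were at least 2-fold lower. With spike-in scaling they were -2.17 and 32. Loess gave -1.18 and 22, where that share of all genes was 14.0%. The count was 10 under normexp, 8 of 15 among the brighter genes alone and 2 at a 3-fold threshold. The distance from the median of all genes was -1.51 with no filter on dim probes, against -1.28. Quantile normalization and the authors' value table each gave 13. Beyond no scaling and loess, the share of all measured genes was not counted under the alternatives. Those counts of mitosis genes therefore have no background share beside them. The causes of these changes were not tested beyond what each setting does to the values. No gene was at least 2-fold higher under any alternative. No paired analysis was possible because control and NYT hold a single array apiece, so none could be left out either. Genes with dim probes, Aurkb and Cenpf among them, are limited by signal over background.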
